A study of Mus musculus with 6 samples.

Results

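The Hox genes of primary mouse renal fibroblasts were examined: the 39 genes of the table whose symbol is Hox, a cluster letter and a paralog number, out of 34745 genes in all. The members were taken by that name alone, without use of their values. They lie in 4 clusters, with 11 genes in HoxA on chromosome 6, 10 in HoxB on chromosome 11, 9 in HoxC on chromosome 15 and 9 in HoxD on chromosome 2. RNA was sequenced from wild-type (WT) kidney fibroblasts under 2 conditions, with 3 libraries in each. In the alone group the fibroblasts grew with no added cells. In the coculture group they had been left for 6 h to attach, and induced Th17 cells (the interleukin-17-producing helper T cells) were then held above them for 24 h in an insert with 0.4 μm pores. Only the fibroblasts below the insert were collected. Nothing in the labels says if replicate libraries stem from different mice or cultures, so every p-value measures only their spread, which may be technical.

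Hox genes encode homeodomain transcription factors that assign position along the body axis. Within a cluster the genes stand in the order of their paralog number, low numbers being expressed toward the head and high numbers toward the tail, and genes of the same number in different clusters are paralogs that descend from 1 ancestral gene. Fibroblasts of adult tissues keep a pattern of Hox expression that reflects where in the body they arose. In the embryonic kidney the group 11 genes Hoxa11, Hoxc11 and Hoxd11 act together in the mesenchyme that forms nephrons, while genes such as Hoxb7 are active in the duct that invades it. The comparison asked which of these positional genes the fibroblasts expressed, and whether the presence of Th17 cells changed them.

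The DNA-binding part of a Hox protein, the homeodomain, is encoded by the homeobox, which a script found in GENCODE M21 transcripts of all 39 members as a stretch of 180 bases within 1 exon. The homeoboxes below belong to the gene that rose with Th17 cells and to the 2 group 4 paralogs that fell. They are coding-strand sequence, 5′ to 3′, and the capitals mark codons 48 to 53, the most conserved stretch of the recognition helix that lies in the major groove of DNA. In GRCm38 the Hoxb9 homeobox is at chr11:96274659-96274838 (+), that of Hoxa4 at chr6:52190483-52190662 (-) and that of Hoxc4 at chr15:103035663-103035842 (+).
Hoxb9: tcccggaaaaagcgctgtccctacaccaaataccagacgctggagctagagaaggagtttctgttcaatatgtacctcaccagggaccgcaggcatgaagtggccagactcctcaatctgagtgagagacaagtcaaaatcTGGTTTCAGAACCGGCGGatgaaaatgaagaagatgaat
Hoxa4: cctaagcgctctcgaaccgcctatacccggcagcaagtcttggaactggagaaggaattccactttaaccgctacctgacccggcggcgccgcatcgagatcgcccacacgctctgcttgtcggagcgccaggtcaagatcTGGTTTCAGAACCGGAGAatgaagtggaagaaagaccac
Hoxc4: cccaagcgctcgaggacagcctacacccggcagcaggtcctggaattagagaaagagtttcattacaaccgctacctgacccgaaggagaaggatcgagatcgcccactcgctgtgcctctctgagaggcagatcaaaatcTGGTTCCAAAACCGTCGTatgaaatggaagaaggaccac
The paralogs Hoxa4 and Hoxc4 were identical at 142 of the 180 homeobox bases (78.9%), while Hoxb9 shared 102 (56.7%) with Hoxa4 and 107 (59.4%) with Hoxc4. These similarities bear on the counting, since how fragments that match several genes were assigned is not given in the sources used here. Between whole transcripts of tested members, the longest exact match of Hoxb9 was 20 bases (with Hoxb7) and that of Hoxc4 20 (with Hoxb5). It was 24 for Hoxa4 (with Hoxa2), 28 for Hoxb2 (with Hoxb3) and 33 for Hoxb3 (with Hoxa3). Some untested members shared longer runs within the homeobox, 40 bases between Hoxb9 and Hoxd9 and 47 between Hoxb3 and Hoxd3.

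Library totals were 12050529 to 13209581 counts, so that a gene with 3 counts, taken as the floor of detection, stood at 0.223 to 0.254 CPM (counts scaled to a common library total). The cells carried the fibroblast markers, and all 10 of that list were tested. The summed CPM of the fibroblast list was 34118 to 36004 alone and 14253 to 15954 in coculture, with 1 marker higher and 8 lower. The called share of that list was 90%, beside 37.1% of all tested genes (17.1% higher and 20% lower). Macrophage markers summed to 58.3 to 61.9 CPM alone and 19.9 to 21.1 in coculture. Of the 6 tested, 5 were lower (83.3%, beside 20% of all genes). T cell markers summed to 2.02 to 3.32 CPM alone and 2.12 to 3.35 in coculture, Cd3d, Il17a and Il17f being at 0 in every library. Endothelial markers summed to 6.80 to 8.04 CPM alone and 2.06 to 3.07 in coculture (Emcn at 0). Epithelial markers summed to 3.89 to 5.69 and 1.49 to 1.71 (Umod at 0). In either list 1 of 2 tested markers was lower (50%, beside 20% of all genes). These shifts moved with the Hox differences given below, and their part in them was not tested. In bulk RNA, fewer cells of a type and less RNA per cell cannot be told apart.

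The fibroblasts expressed most of the low and middle paralog groups of HoxA and HoxB, and also Hoxb9. They had little of Hoxa6, Hoxa7 and HoxC and almost none of HoxD or of groups 10 to 13. Levels of different genes were compared with the deposited FPKM (fragments per gene length and library total), which divides by a gene length. In fibroblasts alone Hoxa5 was highest at 16.8 ± 2.25 FPKM, followed by Hoxb7 at 12.3 ± 0.693, Hoxa4 at 9.18 ± 0.534, Hoxb9 at 8.66 ± 0.720, Hoxb4 at 8.23 ± 0.686 and Hoxb2 at 7.99 ± 0.559 (SD, n = 3). From Hoxa4 on, each of these lay within 1 SD of the next. In coculture Hoxb9 was highest at 20.8 ± 0.809, followed by Hoxa5 at 15.0 ± 1.24, Hoxb7 at 12.8 ± 0.558, Hoxb4 at 10.2 ± 0.951 and Hoxb6 at 9.03 ± 0.689. The order depends on the length used, since the one implied by the deposited FPKM was 1.67 times the annotated exon bases for Hoxb6 and equal to them for Hoxb4 and Hoxa4. Per annotated exon bases, Hoxa5 at 16.8 and Hoxb7 at 13.2 still led in fibroblasts alone and Hoxb9 at 23.2 in coculture. In fibroblasts alone Hoxb6 at 12.4, Hoxb2 at 10.9 and Hoxb3 at 10.2 then stood above Hoxb9 at 9.66, Hoxa4 and Hoxb4. In coculture Hoxb6 at 15.1 stood level with Hoxa5 at 15.0. Averaged over the 6 libraries, the highest within HoxC were Hoxc4 at 1.43, Hoxc6 at 1.27 and Hoxc5 at 0.932 FPKM, and within HoxD it was Hoxd8 at 0.451.

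**Figure D1:**
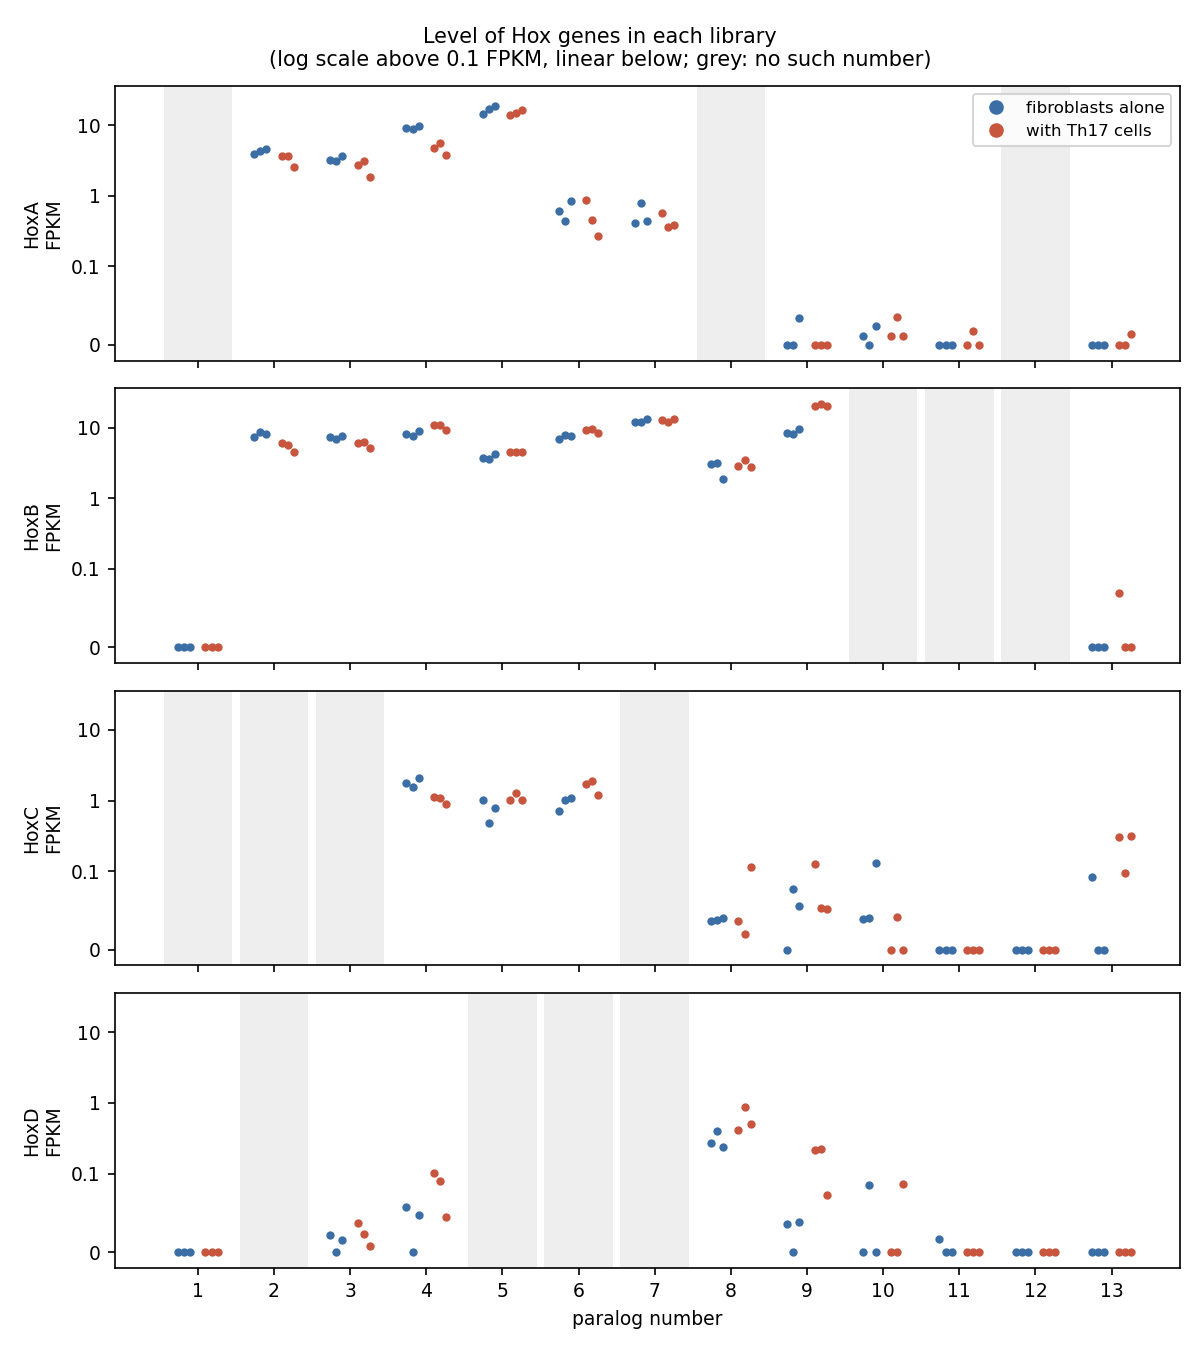
Deposited FPKM (vertical axis, logarithmic above 0.1 and linear below) of 38 Hox genes in each of the 6 libraries, by paralog number (horizontal axis) with 1 panel per cluster; blue points are fibroblasts alone, red points fibroblasts with Th17 cells, and grey columns are numbers a cluster lacks. HoxA and HoxB genes of numbers 2 to 8 lay at 1 FPKM or above in all libraries except Hoxa6 and Hoxa7, and Hoxb9 stood apart between the groups.

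Of the 39 members, 33 had at least 1 count and 6 had none in any library (Hoxb1, Hoxc11, Hoxc12, Hoxd1, Hoxd12 and Hoxd13). Those 6 were not detectable at this depth, which allows up to 0.254 CPM. A filter on low counts left 18 members for testing, and none of the other 21 had more than 10 counts in a library. The kidney's own group 11 was among the absent ones, since Hoxa11 and Hoxd11 had 1 count each over all libraries and Hoxc11 had none. Of the 12 members of groups 10 to 13, 0 were tested. The transcripts thus covered HoxA up to Hoxa7 and HoxB up to Hoxb9, while Hoxa9, a paralog of Hoxb9, had counts of 0, 0 and 3 alone and 0 in all coculture libraries.

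With Th17 cells, 1 member rose and 4 fell among the 18 tested, by edgeR's quasi-likelihood test at a Benjamini-Hochberg adjusted p below 0.05 over 13088 genes. The called share of the Hox genes was 27.8%, beside 37.1% of all tested genes (17.1% higher and 20% lower). A 2-fold change was passed as well by 2 members, Hoxb9 and Hoxa4, beside 11.6% of all genes (3.87% higher and 7.78% lower). In 9 of 18 members (50.0%) the libraries of the groups did not overlap in CPM, beside 50.4% of all genes. The median log2 fold change of coculture over alone was 0.02 in the Hox genes, with 9 positive and 9 negative values from -1.02 to 1.20, and 0.00 over all genes. The Hox share was thus not above the background, and what follows concerns single members. The count of higher members was 4 without coculture replicate 3 (Hoxb4, Hoxb6 and Hoxc6 being added) and 2 without coculture replicate 1 (Hoxd8 being added), and the count past 2-fold was 1 without alone replicate 3 or coculture replicate 3.

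**Figure D2:**
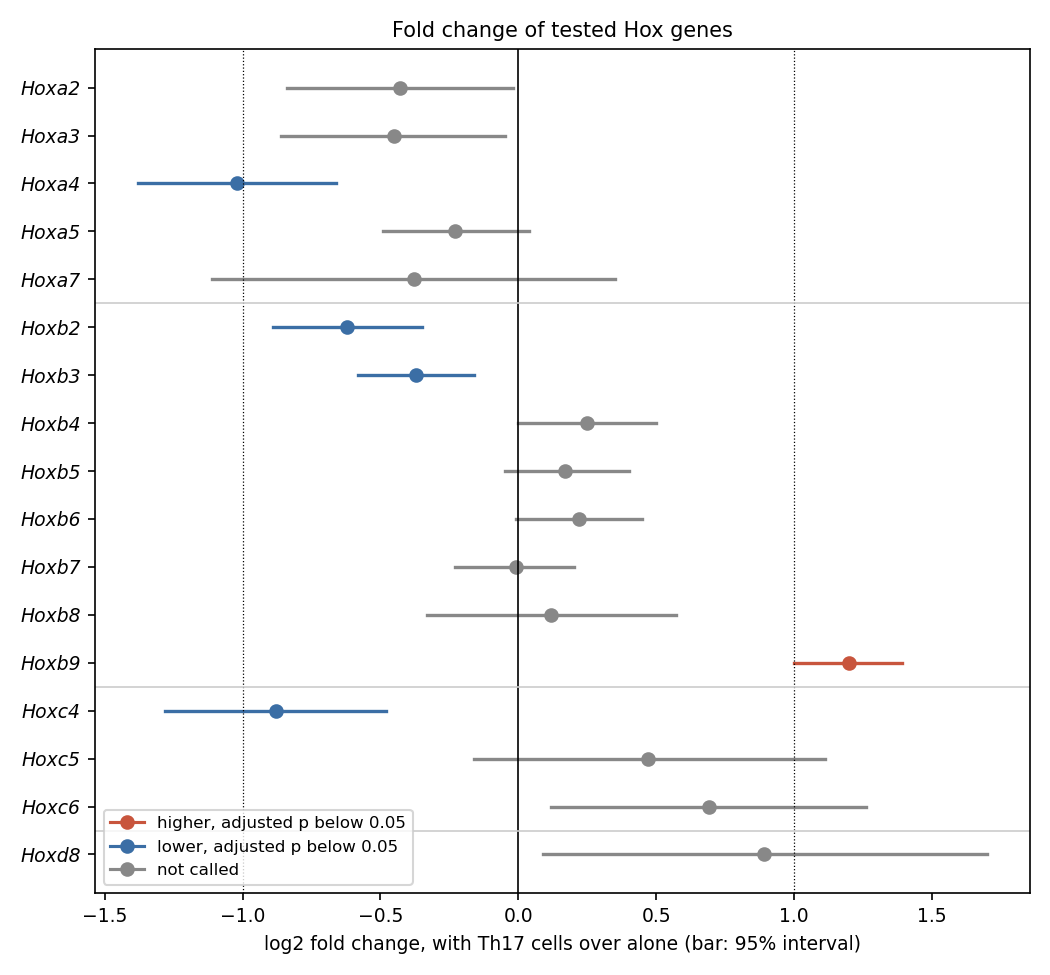
Log2 fold change of coculture over alone (horizontal axis) of 17 tested Hox genes, grouped by cluster and ordered by paralog number; points are edgeR estimates, bars 95% intervals and dotted lines 2-fold. Hoxb9 at 1.20 is the called rise, and the 4 called falls are Hoxa4 at -1.02, Hoxc4 at -0.88, Hoxb2 at -0.62 and Hoxb3 at -0.37.

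Hoxb9, a posterior gene that patterns the thoracic region, was the member that rose. It had 318, 302 and 328 counts alone and 763, 781 and 749 in coculture. The groups lay far apart, since the lowest coculture library (749) exceeded the highest alone library (328). The level rose from 25.4 ± 2.04 to 58.4 ± 2.60 CPM (SD, n = 3), or from 8.66 ± 0.720 to 20.8 ± 0.809 FPKM, which made it the Hox gene with the highest FPKM in the cocultured fibroblasts. The log2 fold change was 1.20 with a standard error of 0.0864 (edgeR adjusted p = 7.04e-06), a 2.30-fold rise, and its 95% interval ran from 1.0 to 1.39. No exon of Hoxb9 overlapped another annotated gene.

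Its group 9 paralogs remained near the floor. Hoxd9 had 1, 0 and 1 counts alone and 6, 6 and 2 in coculture, a ratio of 6.65 with a 95% counting interval of 1.53 to 60.3, and Hoxc9 had 0, 3 and 2 against 5, 2 and 2. Neither passed the filter, and the part of fragments that match both Hoxb9 and Hoxd9 was not tested. Hoxc13, of the most posterior group, had 3, 0 and 0 counts alone and 10, 3 and 10 in coculture (ratio 7.28, interval 2.20 to 37.9). The intervals cover counting error only. They were made only for genes with few counts alone and more in coculture, so they are no test of a rise. Hoxa9, given above, had fewer counts in coculture. So did Hoxc10, with 1, 1 and 3 counts alone and 0, 1 and 0 in coculture.

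Hoxa4, which helps to pattern the neck and upper thorax, fell the most among the members tested. Its counts were 192, 179 and 187 alone and 98, 113 and 78 in coculture, groups that did not overlap. The level went from 15.0 ± 0.837 to 7.37 ± 1.47 CPM (SD, n = 3) and the log2 fold change was -1.02 with a standard error of 0.157 (edgeR adjusted p = 0.000897). Its 95% interval, -1.38 to -0.66, included 2-fold. On the opposite strand 16.0% of its exon bases overlap Gm29430, a noncoding gene assigned at most 3 counts in any library. The part of antisense fragments in the counts of Hoxa4 was not tested.

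Hoxc4, the HoxC paralog of Hoxa4, also fell, from counts of 96, 84 and 105 to 60, 56 and 47. This was 7.66 ± 1.14 against 4.15 ± 0.495 CPM (SD, n = 3), a log2 fold change of -0.88 with a standard error of 0.178 (edgeR adjusted p = 0.00413). The third tested gene of group 4, Hoxb4, had 278, 251 and 276 counts alone and 368, 343 and 300 in coculture. Its log2 fold change was 0.25, with a 95% interval of 0.00 to 0.50 (edgeR adjusted p = 0.105), so that it was not called. The estimates of the group 4 paralogs thus differed in sign, and the difference between them was not tested. Without coculture replicate 3 Hoxb4 was called higher, at 0.33 (edgeR adjusted p = 0.0350).

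Hoxb2 and Hoxb3, anterior genes that act in the hindbrain and its neural crest, fell by smaller amounts. Hoxb2 had 465, 524 and 464 counts alone and 382, 337 and 276 in coculture, or 38.9 ± 2.67 against 25.3 ± 3.84 CPM (SD, n = 3). Its log2 fold change was -0.62 with a standard error of 0.121 (edgeR adjusted p = 0.00336). Hoxb3 had 581, 539 and 541 counts alone and 483, 469 and 399 in coculture, or 44.5 ± 1.67 against 34.4 ± 3.51 CPM. Its log2 fold change was -0.37 with a standard error of 0.0932 (edgeR adjusted p = 0.0123). In both genes all coculture libraries lay below all alone libraries. Both overlap Hoxb3os on the opposite strand, over 27.3% of the exon bases of Hoxb2 and 52.9% of those of Hoxb3, and without strand in the counting their fragments cannot be told apart there. Hoxb3os itself was assigned 20, 28 and 18 counts alone and 17, 13 and 18 in coculture (log2 fold change -0.53, edgeR adjusted p = 0.189). The part of antisense fragments in the counts of Hoxb2 and Hoxb3 was not tested.

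**Figure D3:**
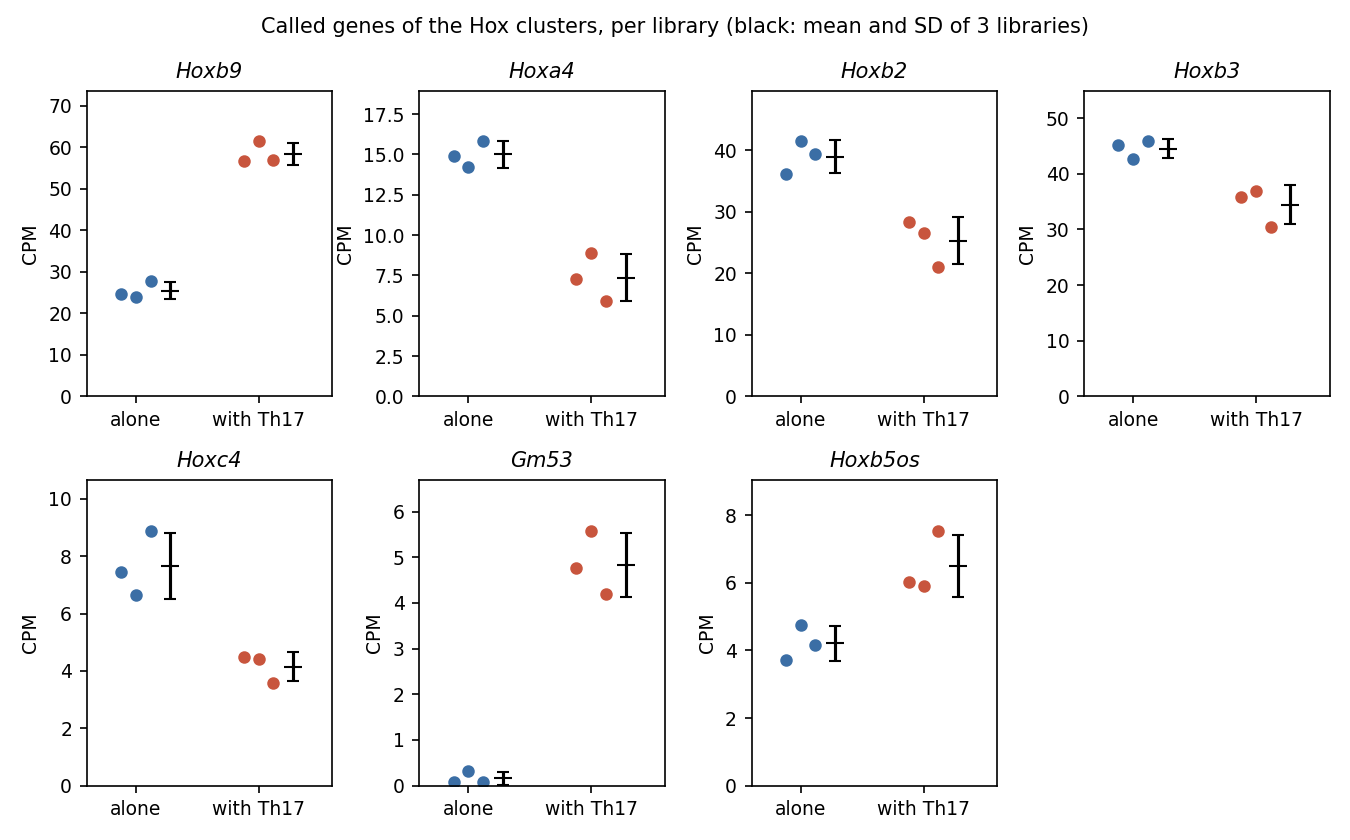
CPM on TMM-scaled library sizes (vertical axes, each from 0) of the 5 called Hox genes and of the called noncoding genes Gm53 and Hoxb5os in each library; blue points are fibroblasts alone, red points fibroblasts with Th17 cells, and black marks the mean and SD of 3 libraries. Hoxb9 went from 25.4 to 58.4 CPM and Hoxa4 from 15.0 to 7.37 CPM, with no overlap of the groups in any of the 7 panels.

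The other 13 tested members were not called. Hoxa5, which patterns the neck skeleton and the lung and was the most abundant Hox transcript in fibroblasts alone, had 358, 411 and 428 counts alone and 339, 352 and 389 in coculture, with overlapping groups (log2 fold change -0.23, 95% interval -0.49 to 0.04). Hoxb7 had 258, 260 and 262 counts alone and 282, 253 and 281 in coculture. Its log2 fold change was -0.01 (95% interval -0.23 to 0.20), and 0.05 with library size alone. Hoxa2, a gene of the hindbrain and branchial arches, had 90, 100 and 97 against 84, 82 and 58 counts (-0.43, interval -0.84 to -0.02, edgeR adjusted p = 0.0909). Together with Hoxa3 (-0.45, adjusted p = 0.0770) it had a negative estimate whose interval left out 0 but whose adjusted p missed the threshold. Hoxa3 was called lower in DESeq2 (-0.45, DESeq2 adjusted p = 0.0461) and without coculture replicate 2 (-0.61, edgeR adjusted p = 0.0392). Hoxb5, Hoxb6 and Hoxb8 had estimates of 0.17, 0.22 and 0.12 and Hoxa7 of -0.38, all with intervals that held 0.

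In HoxC and HoxD, levels were low and estimates wide. Hoxc6, a thoracic gene, had 28, 40 and 40 counts alone and 67, 71 and 46 in coculture, groups that did not overlap, for a log2 fold change of 0.69 (interval 0.12 to 1.26, edgeR adjusted p = 0.0580). Hoxc5 had 48, 22 and 33 against 47, 57 and 46 counts (0.47, interval -0.16 to 1.11). Hoxd8, the single HoxD gene tested, had 18, 26 and 14 against 27, 54 and 32 counts (0.89, interval 0.09 to 1.70, edgeR adjusted p = 0.0778). Next in HoxD by FPKM came Hoxd9, given above, and Hoxd4, with 4, 0 and 3 counts against 7, 6 and 3. Without coculture replicate 3 Hoxc6 was called higher at 0.86 (edgeR adjusted p = 0.0223), and without coculture replicate 1 Hoxd8 was, at 1.10 (adjusted p = 0.0481).

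By paralog number, the estimates followed no steady order. The median was lowest in group 4 (-0.88, 3 tested), lay at -0.53 in group 2 and -0.41 in group 3, and was 0.17 in group 5, 0.46 in group 6, -0.19 in group 7 and 0.51 in group 8. In wider ranges, the median log2 fold change was -0.43 in the 5 tested members of groups 1 to 3, which hold 2 called falls, and 0.15 in the 12 of groups 4 to 8, which also hold 2, and Hoxb9 was the single tested member above group 8. Across the 18 genes, which are not independent replicates, Spearman's rho between paralog number and log2 fold change was 0.60 and Pearson's r 0.62. Within the 8 HoxB genes rho was 0.57 and r 0.79, and without Hoxb9 they were 0.36 and 0.67. Within the 6 HoxA genes they were -0.14 and -0.26, so the relation over all members was not seen in that cluster. These are descriptions of genes measured in the same 6 libraries, and no test was made.

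The make-up of the Hox transcripts, by deposited FPKM, shifted between the groups. The summed FPKM of the 39 genes was 98.4 ± 5.63 alone and 104 ± 5.26 in coculture (SD, n = 3). Of this sum, HoxB held 59.4% ± 1.29 alone and 68.6% ± 0.810 in coculture, while HoxA held 36.5% ± 1.3 and 26.6% ± 0.607. HoxC held 3.77% and 3.93%, and HoxD 0.421% and 0.853%. By paralog number, group 9 went from 8.88% ± 0.389 to 20.1% ± 0.648, nearly all of it Hoxb9, and groups 1 to 3 from 24.4% ± 0.591 to 17.6% ± 1.64. Shares of a fixed total move against each other, so a larger share of one gene lowers the others.

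Within HoxB the called genes stood at opposite ends of the expressed stretch. Hoxb9 is its most posterior expressed gene and Hoxb2 and Hoxb3 its most anterior ones, and the 5 genes between them (Hoxb4 to Hoxb8) were not called. Noncoding genes inside the clusters, taken by position with 10 kb added at each end, numbered 20, of which 10 were at 0 in all libraries (among them Hotair, Hottip and Haglr) and 5 were tested. Of those, 2 rose and 0 fell by edgeR (40%, beside 37.1% of all genes), and 0 fell at an unadjusted p below 0.05, in DESeq2 or in limma. Gm53, a lincRNA at chr11:96251105-96264868 whose end lies 6.6 kb before the start of Hoxb9, had 1, 4 and 1 counts alone and 64, 71 and 55 in coculture. Its level was 0.160 ± 0.136 against 4.84 ± 0.701 CPM (SD, n = 3), and the ratio of its summed counts was 30.1, with a 95% counting interval of 13.6 to 83.0 (fitted log2 fold change 4.83, edgeR adjusted p = 1.77e-05). It passed the filter only through the coculture group and could not be tested with at least 10 counts in every library. Hoxb5os, transcribed on the opposite strand across Hoxb5 and Hoxb6, had 48, 60 and 49 counts against 81, 75 and 99 (log2 fold change 0.62, standard error 0.179, edgeR adjusted p = 0.0230). It was not called without alone replicate 1, alone replicate 3 or coculture replicate 3, nor in DESeq2.

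**Figure D4:**
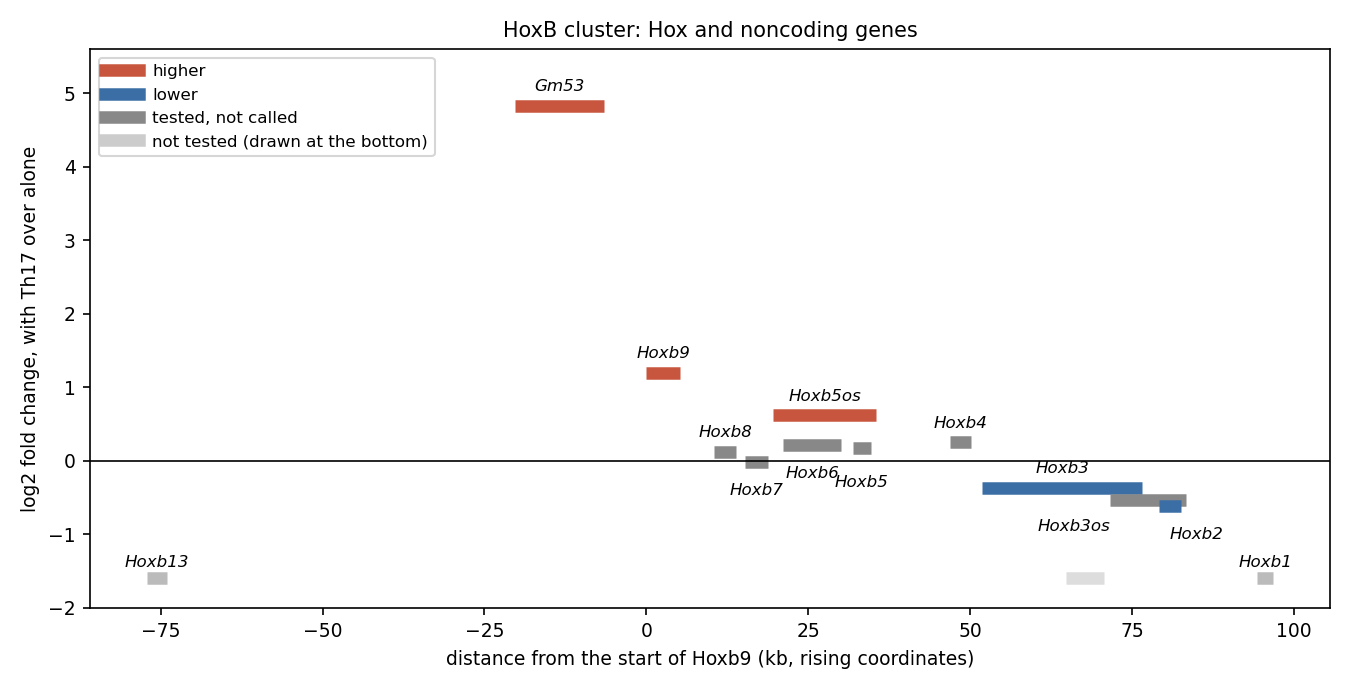
Genes of the HoxB cluster as bars drawn to scale by their distance from the start of Hoxb9 (horizontal axis, kb) at their log2 fold change of coculture over alone (vertical axis); red bars rose, blue bars fell, grey bars were tested and not called, and light bars at the bottom were not tested. Gm53 at 4.83 and Hoxb9 at 1.20 adjoin each other, and Hoxb3 at -0.37 and Hoxb2 at -0.62 lie toward the other end.

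The genes around the clusters give a local comparison. Of 53 protein-coding genes within 500 kb of a cluster, 36 were tested, 4 rose and 10 fell (38.9%, beside 37.1% of all genes). The median log2 fold change was -0.13 and the range -7.02 to 0.58. A 2-fold change was passed as well by 5 of the 36, all of them falls. Of all genes 11.6% passed it, 7.78% as falls and 3.87% as rises. The number that rose was 2 without alone replicate 1, alone replicate 3 or coculture replicate 2. Igf2bp1, an mRNA-binding protein gene beyond the Hoxb13 end of HoxB, had the highest estimate (0.58, standard error 0.0958, edgeR adjusted p = 0.00139). Evx1 and Evx2, the homeobox genes that flank HoxA and HoxD, were at 0 in every library. Promoter sequence, from 250 bases before to 50 after the start, was present in the RefSeq table (GRCm38) for 22 members. Its median ratio of observed to expected CpG was 0.594 in those, 0.591 in the 8 that were tested and 0.675 in the 14 that were not, beside 0.389 for all 27025 genes with a promoter there.

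The proteins that work with Hox proteins on DNA are the TALE homeodomain factors (Pbx, Meis and Pknox). Of 9 such genes 8 were tested, 1 rose and 3 fell (50%, beside 37.1% of all genes), with a median of 0.04. Pknox2 fell the most, from 89, 99 and 78 counts to 16, 22 and 19 (log2 fold change -2.28, standard error 0.206, edgeR adjusted p = 3.06e-05). Meis2 fell as well (-0.65, edgeR adjusted p = 0.000392). Meis1 rose from 56.6 ± 3.23 to 82.8 ± 0.595 CPM (0.55, adjusted p = 0.000291). Thus 2 Meis paralogs changed in opposite directions.

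Polycomb complexes keep Hox genes silent outside their domain, and trithorax proteins and H3K27 demethylases keep them open. Of 30 Polycomb genes, all tested, 7 rose and 3 fell (33.3%, beside 37.1% of all genes, median -0.07), a share not above the background. The largest falls were those of Pcgf5 (-1.46, edgeR adjusted p = 5.18e-06) and Pcgf2 (-0.74, adjusted p = 0.00600), subunits of the PRC1 complex, followed by Ezh2, the methyltransferase of PRC2 (-0.49, adjusted p = 0.00274). Those that rose most were Cbx2 (0.60, adjusted p = 0.0116), Pcgf1 (0.54, adjusted p = 0.0233) and Rybp (0.43, adjusted p = 0.0283). The count of 7 risers fell to 2 without alone replicate 1 or alone replicate 2, to 3 without alone replicate 3 or coculture replicate 2, and to 4 in DESeq2. In the trithorax list 15 were tested, 0 rose and 2 fell (13.3%, beside 37.1% of all genes, median 0.02), Psip1 (-0.64, edgeR adjusted p = 0.000197) and the demethylase Kdm6b (-0.40, adjusted p = 0.00217). In that list 0 rose at an unadjusted p below 0.05, in DESeq2 or in limma.

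Retinoic acid induces Hox genes in the embryo, the anterior ones first. Of 18 genes of its synthesis, binding, breakdown and receptors, 14 were tested, 3 rose and 5 fell (57.1%, beside 37.1% of all genes), with a median of -0.02. Aldh1a3, which makes retinoic acid, rose from 12, 22 and 14 counts to 1246, 1318 and 1255 (log2 fold change 6.23, standard error 0.157, edgeR adjusted p = 2.22e-08). Rdh10, which makes its precursor, rose by 0.84 (adjusted p = 0.000421), and the receptor gene Rxra by 0.83 (adjusted p = 3.40e-05). The gene of the binding protein Crabp2 fell (-2.17, adjusted p = 0.000389), as did Dhrs3, which turns retinal back to retinol (-1.18, adjusted p = 7.65e-06). The receptor genes Rara, Rarb and Rarg had estimates of -0.03, 0.01 and -0.07 and were not called.

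**Figure D5:**
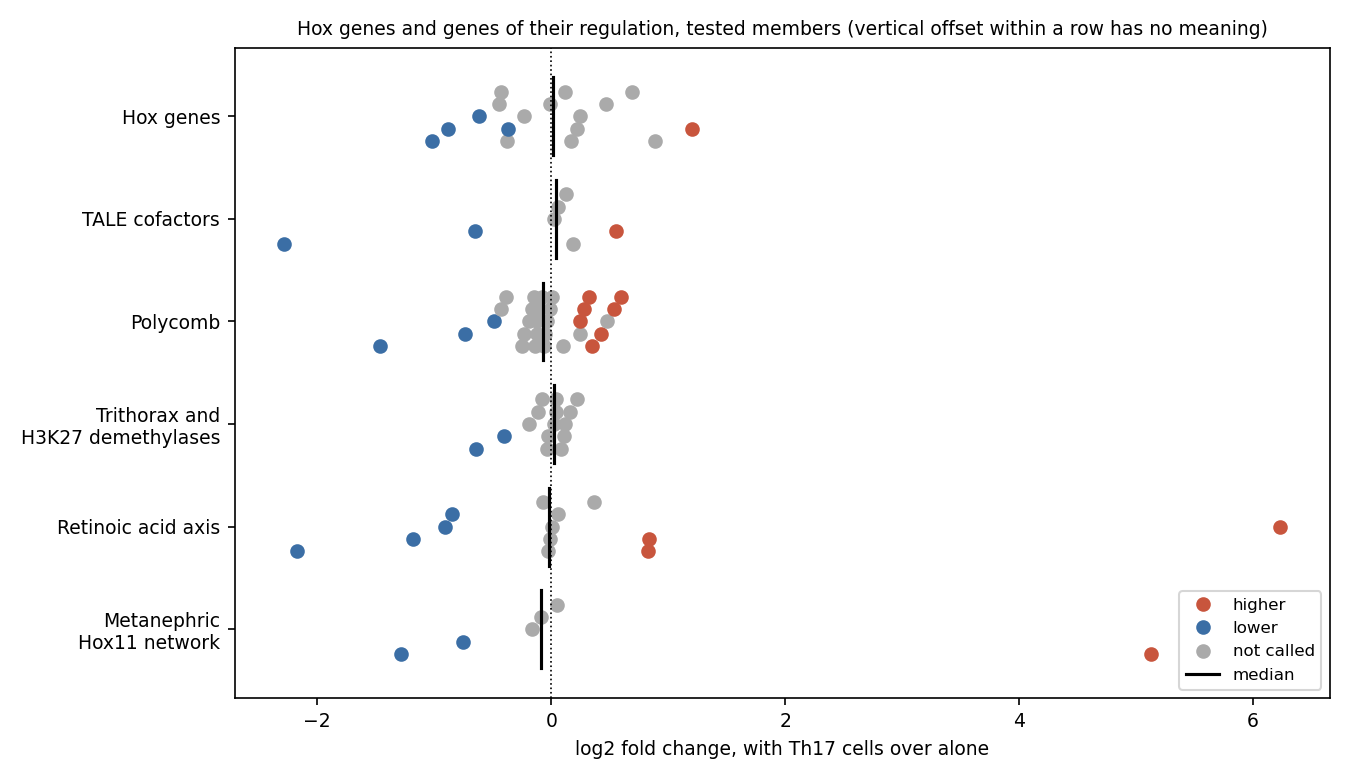
Log2 fold change of coculture over alone (horizontal axis) of tested Hox genes and of tested genes in 5 lists of cofactors, chromatin regulators, the retinoic acid axis and the metanephric network; red points rose, blue points fell, grey points were not called and black lines are medians over all tested genes of the row, of which a few are not drawn. The medians lie between -0.09 and 0.04 in all 6 rows, with Aldh1a3 at 6.23 and Eya1 at 5.13 (a fitted value resting on 1 count in the alone group) to the right.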

How the data were processed

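RNA-seq libraries of 6 samples, 3 per group, were used. Per the labels and the study's methods, reads were filtered with Seqtk and aligned to mm10 with HISAT2 2.0.4. The authors obtained fragment counts per gene with StringTie 1.3.3b and deposited them raw. Beside each count they deposited FPKM, which carries no TMM factor: FPKM times library total over count gave 1 gene length per gene, within 1%, in 100% of 10223 genes. That length was between 1.00 and 1.93 times the annotated exon bases of the Hox members checked. Strand use and the treatment of multiply matching fragments are not given in the sources used here. Fragments carry no molecular identifiers, so intervals and floors cover counting error only.

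Samples were grouped by title, and columns were matched by the labels' descriptions. Counts were tested with edgeR 4.0.16 (R 4.3.3; glmQLFit and glmQLFTest, two-sided, TMM factors 0.976 to 1.03, filterByExpr with a minimum count of 10, no covariate) on the whole table, with Benjamini-Hochberg adjustment over 13088 genes. The standard error is the size of the log2 fold change divided by the square root of F. CPM uses TMM-scaled library sizes. The biological coefficient of variation was 11.6%. On simulated counts for 12947 genes the test called 85.7% of 49 genes planted at 2-fold and 54% of 50 planted at 1.5-fold. It called 7 of 12748 unchanged genes. A far smaller share of genes was changed in the simulation than the 37.1% called in these data, so its rates may not carry over.

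Of the gene identifiers, 98.6% occur in GENCODE M21 (GRCm38), from which positions, exon overlaps and transcripts came. Homeoboxes were located by translating protein-coding transcripts and searching for the conserved stretch of the recognition helix. Alternatives were DESeq2 1.42.0, other scalings and filters, limma 3.58.1 on log2(FPKM + 1) and log2(FPKM + 0.1), a replicate block, leaving out each library, an offset for GC content and leaving out members that overlap another gene.

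The Hox genes and all lists were chosen with earlier results of these data known. Counts per library are given for members past an adjusted p of 0.05 and for the 3 of highest mean FPKM in each cluster, and up to 3 genes per direction are named from each list of regulators. Other genes (members described as uncalled, noncoding genes and neighbours) were named after their values were seen. The values of some genes and some sequences are not reported here.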

Additional observations from a re-analysis of the deposited data

How the results depend on the processing

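Hoxb9, Hoxa4, Hoxb2, Hoxb3 and Hoxc4 kept their direction and an adjusted p below 0.05 in all 16 alternatives run for single genes. Log2 fold changes ranged from 1.16 to 1.26 for Hoxb9, from -1.17 to -0.84 for Hoxa4, from -0.71 to -0.49 for Hoxb2, from -0.42 to -0.27 for Hoxb3 and from -0.97 to -0.47 for Hoxc4. The number of higher members, 1, was 4 with library size only, 4 with limma on log2(FPKM + 1), 4 with limma on log2(FPKM + 0.1), 2 with a replicate block and 1 to 4 when 1 library was left out. The number of lower members, 4, was 1 without the members that overlap another gene, by construction since fewer were kept, 5 in DESeq2 and 4 to 5 when 1 library was left out. Members past 2-fold, 2, numbered 1 with library size only, 1 with limma on either log2 scale, 1 without overlapping members, 0 with glmTreat, which tests against 2-fold itself, and 1 to 3 when 1 library was left out. The median log2 fold change of the Hox genes, 0.02, was 0.22 without overlapping members and -0.04 to 0.06 when 1 library was left out. Hoxb7 turned from -0.01 to 0.05 when only library size was scaled and in limma on either scale. In those settings the median over all tested genes was 0.07, 0.05 and 0.06, beside 0.00 in the main fit. Hoxb7 ranged from -0.04 to 0.03 when 1 library was left out. Hoxb8 then ranged from -0.08 to 0.25. The fitted change of Gm53 was 0.91 (limma on log2(FPKM + 1)) to 5.74 over the 15 alternatives that kept it, and it was called in each. All of these admit it through its coculture counts, and the filter of at least 10 counts in every library dropped it. The calls thus say little of its stability. Where no construction is named, the cause was not tested. Same-numbered libraries correlated at 0.02, -0.03 and 0.00 in their deviations, so the numbers were not taken as pairs. The offset used GC content of transcripts, an alternative chosen after seeing the data, because no genome was used here. Members under about 10 counts in a library were below what the depth could test.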

Other observations

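Group 11 Hox proteins work in the embryonic kidney with Eya1, Pax2 and related factors on Gdnf and Itga8. Of 9 genes of this network 7 were tested in the fibroblasts, which had 1 count of Hoxa11, 1 of Hoxd11 and none of Hoxc11, and 1 rose and 2 fell (42.9%, beside 37.1% of all genes, median log2 fold change -0.09). Eya1 rose from 0, 1 and 0 counts alone to 23, 12 and 15 in coculture (edgeR adjusted p = 0.000711). It passed the filter only through the coculture group, and with at least 10 counts in every library it was not tested and 0 genes of the list rose. The ratio of its summed counts was 47.5, with a 95% counting interval of 8.14 to 1913. Like those above, this interval was made only because counts were few alone and more in coculture, so it is no test. Wt1, the zinc-finger factor of the kidney mesenchyme and podocytes, fell from 31.8 ± 0.912 to 13.1 ± 1.99 CPM (SD, n = 3; log2 fold change -1.28, standard error 0.121, edgeR adjusted p = 4.28e-05), and Osr1, an early factor of the intermediate mesoderm, fell from 7.95 ± 0.391 to 4.72 ± 0.517 CPM (-0.75, adjusted p = 0.00412). Gdnf, the growth factor that draws the ureteric bud into the kidney, had an estimate of 0.05 and was not called, nor was Six2 (-0.16).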
